A study of Homo sapiens with 30 samples.

Results

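A set of 10 immediate early response genes were followed through the organs that a human breast cancer cell line colonises in mice. The members are FOS, FOSB, FOSL1, JUN, JUNB, ATF3, EGR1, KLF6, IER2 and ZFP36, chosen by symbol and looked up by Ensembl identifier. All 10 were present in both deposited count tables, among 38526 genes in the first and 36291 in the second, and all were kept by the filter on low counts in both (17418 and 17549 genes kept). The cells were MDA-MB-231, a triple-negative breast cancer line, marked with LeGO lentiviral barcodes and grown in NSG mice (NOD-SCID-IL2Rγc−/−), which lack T, B and NK cells. Sorted subclone 13 and sorted subclone 2 were each taken from lung metastases, liver metastases and primary tumours of mice 1, 2 and 3, which gives 6 groups of 3 samples. A retransplantation experiment added subclone 2 from lung and liver metastases of mice 4, 5 and 6. The labels name no drug, no genetic change beyond the barcode and no age, and for the retransplantation they leave unsaid if an organ names where the cells came from or where they grew. Each subclone is a single clone of a single line, so a difference between subclones is a difference between 2 clones, and the hosts have no adaptive immune system.

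Immediate early genes are transcribed within minutes of a growth factor, cytokine, adhesion or stress signal, without new protein synthesis, from promoters bound by SRF with its ternary complex partners and by CREB. FOS and JUN family proteins pair through leucine zippers into AP-1, which binds TGACTCA sites, while EGR1 binds GC-rich sites and induces its own repressors. The response is shut off again by dual-specificity phosphatases, by SOCS proteins and by ZFP36 (tristetraprolin), which binds UAUUUAU elements in the 3′ untranslated region of cytokine and immediate early mRNAs, its own included, and recruits deadenylases. The same genes are also known to be induced when solid tissue is dissociated for sorting.

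The promoters of the 5 members whose lung and tumour values did not overlap in either subclone, described further down, are printed to show which signal-responsive elements lie just before their start sites. Each is the 250 bases before the RefSeq start, on build GRCh38.p14, 5′ to 3′ on the gene's strand, with matches to the searched motifs in capitals.
ZFP36, chr19:39406597-39406846, strand +: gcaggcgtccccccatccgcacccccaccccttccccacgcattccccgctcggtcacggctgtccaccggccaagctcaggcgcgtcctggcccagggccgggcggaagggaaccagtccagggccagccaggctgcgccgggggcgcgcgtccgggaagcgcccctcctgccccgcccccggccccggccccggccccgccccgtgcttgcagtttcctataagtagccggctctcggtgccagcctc
FOS, chr14:75278578-75278827, strand +: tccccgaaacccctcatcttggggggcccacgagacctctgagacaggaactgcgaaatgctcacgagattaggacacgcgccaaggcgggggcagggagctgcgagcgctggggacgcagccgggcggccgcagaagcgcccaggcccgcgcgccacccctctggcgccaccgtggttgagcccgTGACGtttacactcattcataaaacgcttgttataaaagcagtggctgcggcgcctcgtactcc
EGR1, chr5:138465229-138465478, strand +: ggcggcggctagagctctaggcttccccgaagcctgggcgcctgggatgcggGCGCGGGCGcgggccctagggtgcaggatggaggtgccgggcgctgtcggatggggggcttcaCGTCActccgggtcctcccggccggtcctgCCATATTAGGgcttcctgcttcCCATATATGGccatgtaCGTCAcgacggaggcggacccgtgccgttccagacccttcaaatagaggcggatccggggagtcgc
JUNB, chr19:12791236-12791485, strand +: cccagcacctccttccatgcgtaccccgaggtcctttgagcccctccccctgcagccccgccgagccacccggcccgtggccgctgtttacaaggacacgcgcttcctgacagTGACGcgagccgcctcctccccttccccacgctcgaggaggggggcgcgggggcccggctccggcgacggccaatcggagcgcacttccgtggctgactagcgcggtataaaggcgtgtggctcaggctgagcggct
IER2, chr19:13150161-13150410, strand +: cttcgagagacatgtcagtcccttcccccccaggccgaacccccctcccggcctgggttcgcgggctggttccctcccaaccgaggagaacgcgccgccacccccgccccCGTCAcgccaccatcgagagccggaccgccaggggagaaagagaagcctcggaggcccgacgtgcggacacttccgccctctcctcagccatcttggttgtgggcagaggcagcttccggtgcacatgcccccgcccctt
Such a window was at hand for 9 members (2 windows for ATF3), and FOSL1 is only named. Any other start of a member was not searched, so a missing match speaks only for these windows. The CRE core, TGACG on either strand, was found in 6 of 9 (FOS, FOSB, JUN, JUNB, EGR1 and IER2) and in 21.2% of all 35116 windows of this length. In FOS it began 64 bases before the start, in JUNB 137, in IER2 140 and in EGR1 135 and 66. The full CRE, TGACGTCA, which contains the CRE core, matched in 0 of 9 members and in 1.65% of windows, and the AP-1 site TGACTCA in 0 of 9 and 4.2%. EGR1 alone of the 9 held the CArG box, the site of SRF, with matches beginning 105 and 83 bases before the start (1.16% of windows). The EGR site GCGNGGGCG was found in EGR1 itself, 198 bases before its start, and in KLF6, and in 8.41% of windows. ZFP36 had no match to any of the 5 motifs in its window. These are letter matches, not measured binding.

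ZFP36's own recognition element, UAUUUAU, was found in the 3′ untranslated region of 7 of the 10 members and in 29.4% of 18794 human 3′ untranslated regions (GENCODE v29, GRCh38). A stretch from ZFP36 and one from FOS are shown because these transcripts had the most copies, with the element in capitals; 2 of the 3 copies in ZFP36 and 1 of the 2 in FOS lie inside the stretches printed.
ZFP36, bases 490 to 514 after the stop codon: cuuUAUUUAUgacgacuuUAUUUAU
FOS, bases 647 to 671 after the stop codon: UAUUUAUuaagauggauucucagau
ZFP36 had 3 copies in 713 bases, a number reached by 1.47% of the 1019 regions within 10% of that length, and FOS had 2 in 806 bases, reached by 4.76% of 1092. FOSB, FOSL1, JUN, ATF3 and KLF6 had 1 each, while JUNB, EGR1 and IER2 had none.

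The 24 libraries of the first experiment held 6.54 to 72.0 M counts (M, 1000000) and the 6 retransplantation libraries 23.4 to 32.3 M, and the lowest count of any member in a first-experiment sample was 908 (EGR1). Of the line's markers, VIM lay between 2474 and 9742 CPM (counts per 1000000 counts of a TMM-scaled library) in the first experiment, and of the genes low in the line ESR1 and PGR reached at most 1.84 and 0.26 CPM and CDH1 4.83 CPM, while ERBB2 had 67.0 to 98.6 CPM and EPCAM 11.98 to 59.2 CPM. Among markers of other cell types, ALB reached at most 0.806 CPM, SFTPC 0.197, PTPRC 0.889, VWF 0.741, DCN 0.392 and HBB 0.329 CPM in any first-experiment sample. Other genes of the same lists were not near 0: SERPINA1 had 24.9 to 212 CPM, COL1A1 7.76 to 111, PECAM1 8.31 to 42.4, PDGFRB 5.24 to 36.8, CSF1R 2.18 to 13.8 and AGER 1.77 to 8.28 CPM, and APOA1 reached 23.8 CPM. Summed hepatocyte markers were 88.9 to 109 CPM in subclone 13 lung, 170.1 to 213 in its liver metastases and 141 to 236 in its tumours, and 32.3 to 87.7, 26.3 to 56.7 and 59.8 to 67.1 CPM in those of subclone 2. The part of these genes in the results was not tested. The hosts were mice and the counts are of human genes, so low values of these markers do not measure host cells in the samples. The share of counts from mitochondrially encoded genes was 11.2 ± 0.53% in subclone 13 lung metastases, 4.56 ± 0.62% in its liver metastases and 5.09 ± 0.53% in its tumours, and 10.3 ± 0.44%, 4.49 ± 1.22% and 4.72 ± 0.51% in those of subclone 2 (SD, n = 3 mice each). Lung metastases thus stood apart from both other sites in that share, and its part in the results below was not tested. In bulk samples such as these, fewer cells expressing a gene and less RNA per cell cannot be told apart.

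Per kilobase of exon, JUNB was the most abundant member over the 18 first-experiment samples, at a mean of 499 CPM per kilobase, and IER2 the least, at 57.3. Between them lay JUN (263), FOSL1 (240), FOS (224), ZFP36 (211), KLF6 (189), FOSB (187), ATF3 (147) and EGR1 (137 CPM per kilobase). Every member was an abundant transcript, with mean CPM between the 94.1st percentile (IER2) and the 99.6th percentile (KLF6) of the genes kept. They differed in how far they moved: the highest of the 18 samples was 23.8 times the lowest for ZFP36, 21.0 times for FOS and 19.6 times for EGR1, against 4.67 times for JUNB and 3.24 times for FOSL1. In every value sentence that follows, levels are CPM in mice 1, 2 and 3, in that order.

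ZFP36, the mRNA decay factor, separated metastases from tumours most completely. ZFP36 had 520.0, 575 and 1411 CPM in lung metastases of subclone 13 and 596, 252 and 697 CPM in its liver metastases, against 181, 82.3 and 163 CPM in its primary tumours. Subclone 2 gave 272, 590.5 and 950.1 CPM for ZFP36 in lung metastases and 354, 325 and 413 CPM in liver metastases, against 59.2, 62.2 and 125 CPM in primary tumours. All 12 metastasis samples lay above all 6 tumour samples, which held for no other member. The share of all genes for which it held was not counted.

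FOS encodes the founding Fos subunit of AP-1. FOS had 841, 1061 and 2403 CPM in lung metastases of subclone 13 and 893, 489 and 646 CPM in its liver metastases, against 456, 177 and 455 CPM in its primary tumours. Subclone 2 gave 661, 715 and 1604 CPM for FOS in lung metastases and 829, 426 and 706 CPM in liver metastases, against 115, 137 and 419.8 CPM in primary tumours. Within each subclone every lung and every liver sample was above every tumour sample, and the mouse 3 lung sample was the highest of each set.

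FOSB, a close relative of FOS, and FOSL1 (FRA-1), the Fos subunit that MDA-MB-231 cells are known to express constitutively, did not follow that order. FOSB had 793, 844 and 2673 CPM in lung metastases of subclone 13 and 486, 366 and 961 CPM in its liver metastases, against 938, 346 and 1974 CPM in its primary tumours. Subclone 2 gave 770.3, 804 and 2447 CPM for FOSB in lung metastases and 574, 626 and 1403 CPM in liver metastases, against 338, 259 and 2092 CPM in primary tumours. The organs overlapped in both subclones, and all 6 samples of mouse 3 (961 to 2673 CPM) lay above all 12 samples of mice 1 and 2 (259 to 938 CPM). FOSL1 had 751, 432 and 384 CPM in lung metastases of subclone 13 and 508, 231 and 299.8 CPM in its liver metastases, against 476, 384 and 445 CPM in its primary tumours. Subclone 2 gave 699, 471 and 369 CPM for FOSL1 in lung metastases and 694, 424 and 365 CPM in liver metastases, against 459.8, 259 and 499.6 CPM in primary tumours. FOSL1 was the flattest member, its organs overlapped in every pairing, and mouse 3 held its highest value in subclone 2 tumours alone.

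JUN and JUNB encode the Jun subunits, of which JUNB is often the weaker activator. JUN had 1029, 813 and 2607 CPM in lung metastases of subclone 13 and 1035, 539 and 1178 CPM in its liver metastases, against 1020.0, 674 and 704 CPM in its primary tumours. Subclone 2 gave 1002, 915 and 1433 CPM for JUN in lung metastases and 847, 391 and 1165 CPM in liver metastases, against 469.9, 381 and 582 CPM in primary tumours. JUN in subclone 2 lung lay above its tumours without overlap, whereas in subclone 13 lung and tumour values overlapped. JUNB had 1028, 768 and 1865 CPM in lung metastases of subclone 13 and 776, 499 and 973 CPM in its liver metastases, against 726, 587 and 447 CPM in its primary tumours. Subclone 2 gave 982, 1406 and 2085 CPM for JUNB in lung metastases and 928, 572 and 1179 CPM in liver metastases, against 514, 503 and 518 CPM in primary tumours. JUNB in lung was above tumour without overlap in both subclones, and in liver in subclone 2. On chromosome 19 JUNB overlaps HOOK2 on the opposite strand, which reached at most 34.5 CPM; the library kit does not mark strand, so reads in the overlap could belong to either.

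ATF3, a stress-induced factor that binds ATF and AP-1 sites, did not separate the organs either. ATF3 had 403, 436 and 1353 CPM in lung metastases of subclone 13 and 251, 302 and 661 CPM in its liver metastases, against 847, 233 and 1189 CPM in its primary tumours. Subclone 2 gave 371, 491 and 1213 CPM for ATF3 in lung metastases and 223, 322 and 808 CPM in liver metastases, against 195, 146 and 1239 CPM in primary tumours. Organs overlapped in both subclones, and the subclone 2 tumour of mouse 3 exceeded its own lung and liver metastases.

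EGR1 is a zinc finger factor and KLF6 a Krüppel-like factor. EGR1 had 508, 445 and 1131 CPM in lung metastases of subclone 13 and 517, 197 and 373 CPM in its liver metastases, against 395, 122 and 307 CPM in its primary tumours. Subclone 2 gave 350.1, 472 and 739 CPM for EGR1 in lung metastases and 830.5, 283 and 658 CPM in liver metastases, against 82.4, 57.8 and 264 CPM in primary tumours. The subclone 2 tumours of mice 1 and 2 held the lowest EGR1 of all 18 samples. KLF6 had 1323, 1349 and 2089.6 CPM in lung metastases of subclone 13 and 1213, 963 and 1114 CPM in its liver metastases, against 1289.6, 787 and 1236 CPM in its primary tumours. Subclone 2 gave 1040.5, 1196 and 1449 CPM for KLF6 in lung metastases and 969.7, 1507 and 1201 CPM in liver metastases, against 432, 637 and 1052 CPM in primary tumours. KLF6 in subclone 13 lung lay above its tumours and above its liver metastases, by a small margin (its lowest lung sample had 1323 CPM and its highest tumour sample 1289.6 CPM).

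IER2, a nuclear protein induced by serum, was the least abundant member. IER2 had 200.4, 158 and 360.0 CPM in lung metastases of subclone 13 and 122, 60.6 and 91.4 CPM in its liver metastases, against 148, 64.2 and 85.5 CPM in its primary tumours. Subclone 2 gave 291, 327 and 375 CPM for IER2 in lung metastases and 256, 120.0 and 256 CPM in liver metastases, against 74.7, 62.6 and 116 CPM in primary tumours. In both subclones lung lay above liver and above tumour without overlap. Liver lay above tumour without overlap in subclone 2 and overlapped it in subclone 13.

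**Figure D1:**
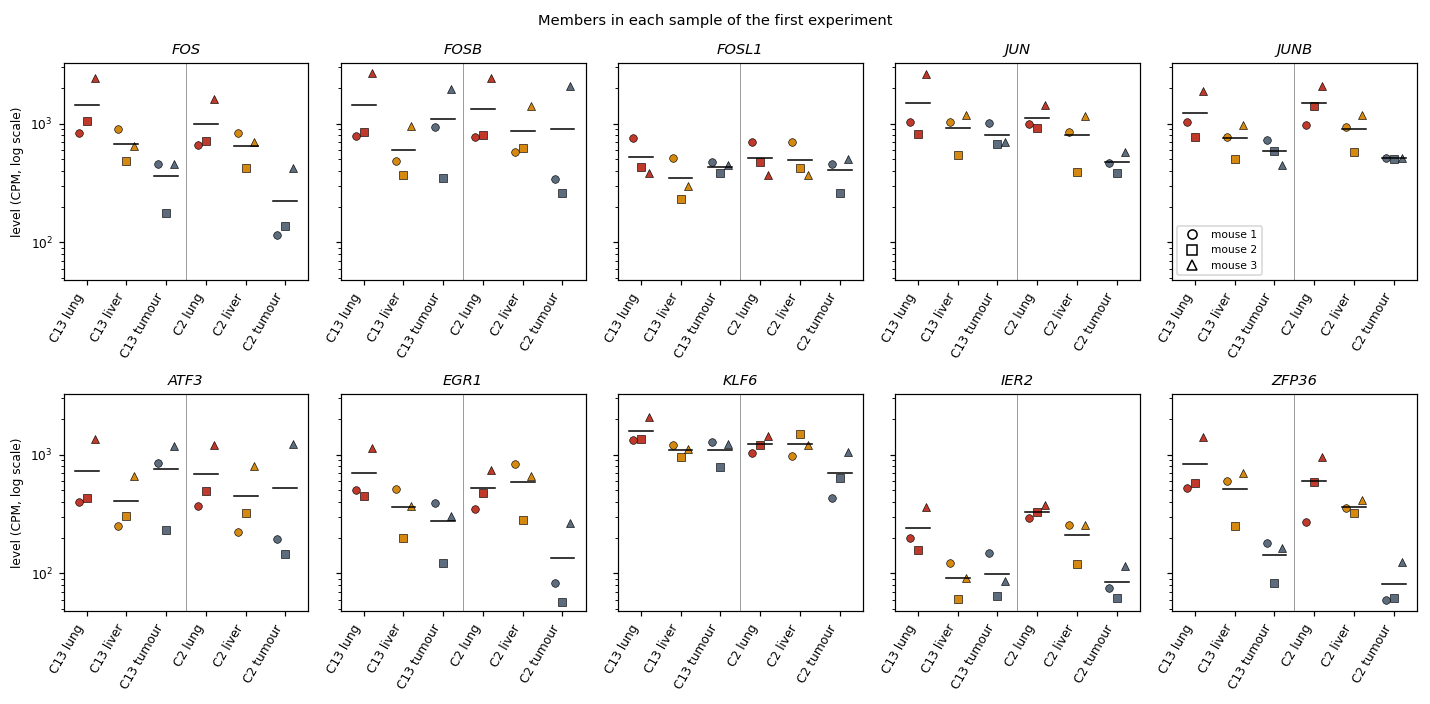
Level of each of the 10 genes in every first-experiment sample, as CPM on a log axis, with groups in the order subclone 13 lung, liver and tumour, then subclone 2 lung, liver and tumour; marker shape gives the mouse and the bar the group mean. ZFP36 is the gene whose 12 metastasis points all lie above its 6 tumour points, and the mouse 3 points lead FOSB in every group. The share of all genes with every metastasis above every tumour was not counted.

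Lung metastases were compared with primary tumours of the same subclone, which asks what the cells express at the metastatic site. ZFP36 rose in both subclones and IER2 in subclone 2, while FOS, EGR1, JUNB and JUN had positive fold changes that did not pass the threshold (edgeR quasi-likelihood test, Benjamini-Hochberg adjusted p of 0.05 over all genes). ZFP36 averaged 835 ± 499 CPM in subclone 13 lung metastases and 142 ± 52.5 CPM in its tumours, and 604 ± 339 CPM in subclone 2 lung metastases and 82.1 ± 37.1 CPM in its tumours (SD, n = 3 each). The log2 fold change of ZFP36 was 2.56 ± 0.51 (adjusted p = 0.0334) in subclone 13 and 2.88 ± 0.52 (adjusted p = 0.0159) in subclone 2 (± SE, edgeR throughout). IER2 averaged 331 ± 42.3 CPM in subclone 2 lung metastases and 84.4 ± 27.9 CPM in its tumours, a log2 fold change of 1.97 ± 0.40 (adjusted p = 0.0353), and 1.27 ± 0.39 (adjusted p = 0.238) in subclone 13. Whether these genes passed the threshold depended on single samples, in fits where the calls over all genes fell too. With 1 sample of the groups compared left out, edgeR called 17 to 39 genes in subclone 13, against 73 with every sample. In subclone 2 it called 6 to 43 genes, against 76. The log2 fold change of ZFP36 in these fits was 1.95 to 2.81 in subclone 13 and 2.38 to 3.31 in subclone 2. When 1 sample of the groups compared was left out at a time, ZFP36 in subclone 13 stayed past the threshold without the lung sample of mouse 1 (2.81 ± 0.53, adjusted p = 0.0437, edgeR) and lost it without any of the other 5 (up to 0.198). In subclone 2 it stayed past the threshold without the lung sample of mouse 1 (3.23 ± 0.50, 0.0161) or the tumour of mouse 3 (3.31 ± 0.60, 0.0318) and lost it without any of the other 4 (up to 0.113). IER2 in subclone 2 lost it without any 1 of its 6 samples (adjusted p from 0.0508 to 0.173).

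Lung fold changes were larger in subclone 2 than in subclone 13 for 10 of 10 members, but no difference between the subclones passed the interaction test given further down. The median difference (subclone 13 minus subclone 2) was −0.33 over the members and −0.03 over all genes. The share of all genes with that direction was not counted, and the members correlate, so they are not 10 separate observations. FOS was 1.98 ± 0.54 (adjusted p = 0.153) in subclone 13 and 2.15 ± 0.55 (adjusted p = 0.111) in subclone 2. EGR1 was 1.34 ± 0.58 (adjusted p = 0.561) in subclone 13 and 1.95 ± 0.59 (adjusted p = 0.210) in subclone 2. JUNB was 1.06 ± 0.36 (adjusted p = 0.335) and JUN 0.89 ± 0.43 in subclone 13, and in subclone 2 they were 1.54 ± 0.37 (adjusted p = 0.0866) and 1.23 ± 0.44. KLF6 was 0.52 ± 0.31 in subclone 13 and 0.80 ± 0.31 in subclone 2. FOSL1 (0.26 ± 0.36 and 0.34 ± 0.36), FOSB (0.40 ± 0.76 and 0.58 ± 0.76) and ATF3 (−0.05 ± 0.77 and 0.39 ± 0.77) lay within 1 SE of no change, in subclone 13 and subclone 2 in that order.

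In subclone 13 the edgeR test called 1 of 10 members in lung against tumour, where it called 0.419% of all genes kept, and 5 had an unadjusted p under 0.05. DESeq2 called 3 of 10, and 1.94% of all genes. In subclone 2 edgeR called 2 of 10, against 0.436% of all genes, and 7 had an unadjusted p under 0.05, while DESeq2 called 5 of 10 and 2.06% of all genes. Groups did not overlap, with lung higher, for 6 of 10 members in subclone 13, against 7.37% of all genes, and for 6 of 10 in subclone 2, against 7.33%. The median log2 fold change was 0.97 over the members and 0.03 over all genes in subclone 13, and 1.38 and 0.05 in subclone 2. The samples of a mouse deviated together, so mouse was also fitted as a term (a replicate block). With mouse in the fit, 3 of 10 members passed in subclone 13, against 2.89% of all genes, and 6 of 10 in subclone 2, against 3.05%. In subclone 13 these were ZFP36 at 2.45 ± 0.35 (adjusted p = 0.000519, edgeR with mouse), FOS at 1.96 ± 0.36 (0.00512) and IER2 at 1.25 ± 0.27 (0.0145). In subclone 2 they were ZFP36 at 2.89 ± 0.35 (adjusted p = 0.000207, edgeR with mouse), IER2 at 2.04 ± 0.27 (0.000325), FOS at 2.22 ± 0.36 (0.00176), EGR1 at 2.19 ± 0.38 (0.00331), JUNB at 1.50 ± 0.28 (0.00604) and JUN at 1.22 ± 0.27 (0.0177).

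**Figure D2:**
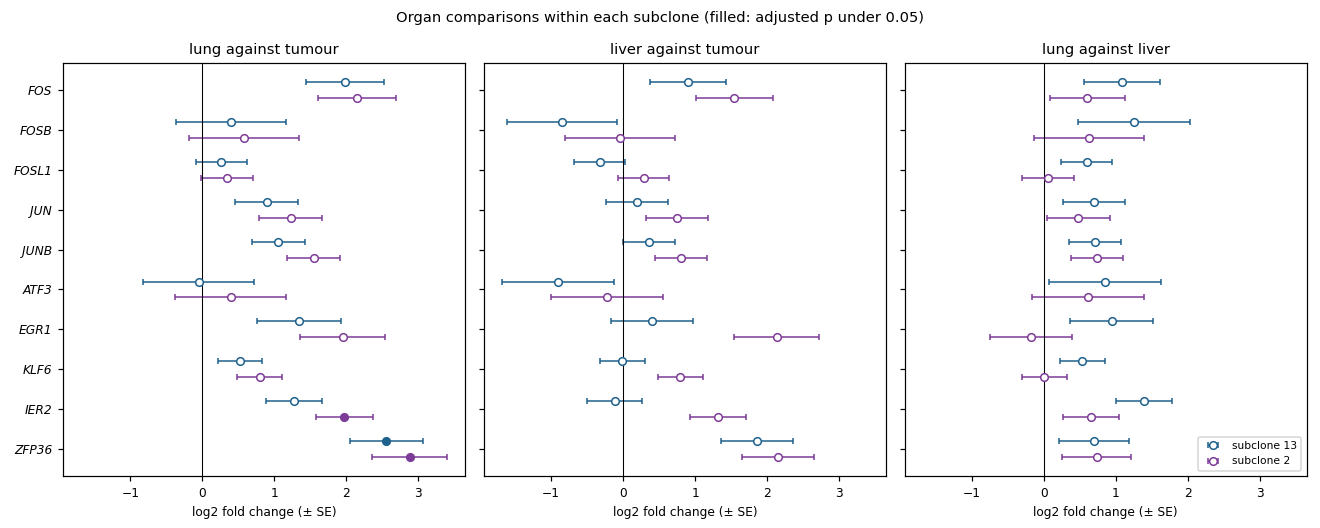
Log2 fold change ± SE of the 10 genes (edgeR without mouse in the fit) for lung against tumour, liver against tumour and lung against liver, with subclone 13 in blue and subclone 2 in purple; filled points passed an adjusted p of 0.05. The filled points are ZFP36 in lung against tumour in both subclones and IER2 in lung against tumour in subclone 2.

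**Figure D3:**
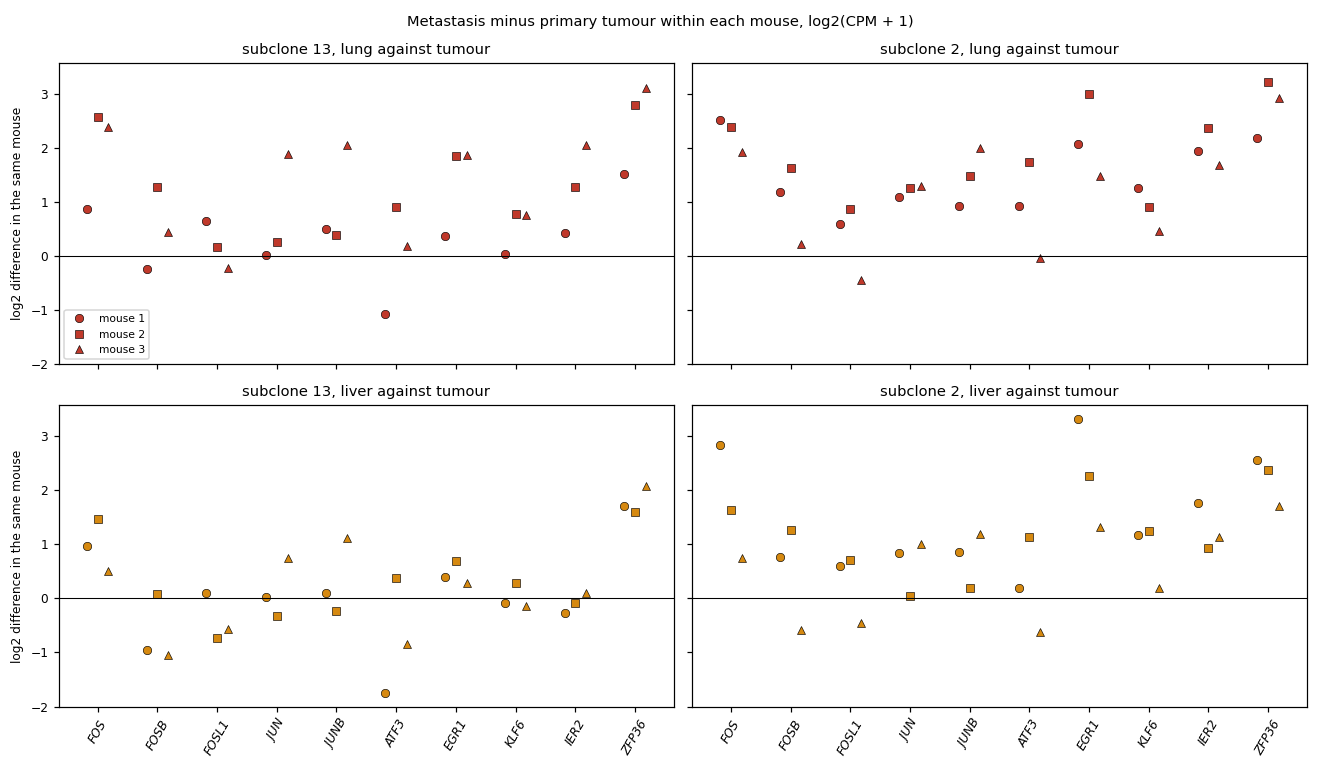
Difference between a metastasis and the primary tumour of the same mouse on the log2(CPM + 1) scale, with lung above and liver below, subclone 13 on the left and subclone 2 on the right, and 1 point per mouse. In the lung panels all 3 mice lie above 0 for 7 of 10 genes in subclone 13 and for 8 of 10 in subclone 2. The share of all genes for which this held was not counted.

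In liver metastases against primary tumours no member passed the threshold, and ZFP36 had the largest fold change of the 10 in both subclones. ZFP36 averaged 515 ± 234 CPM in subclone 13 liver metastases and 142 ± 52.5 CPM in its tumours, a log2 fold change of 1.86 ± 0.50 (adjusted p = 0.170) by edgeR. In subclone 2 it averaged 364 ± 45.0 CPM in liver metastases and 82.1 ± 37.1 CPM in tumours, at 2.15 ± 0.50 (adjusted p = 0.103). EGR1 was 0.40 ± 0.57 in subclone 13 and 2.13 ± 0.59 (adjusted p = 0.223) in subclone 2, FOS 0.90 ± 0.53 and 1.55 ± 0.53 (adjusted p = 0.408), and IER2 −0.12 ± 0.38 and 1.32 ± 0.39 (adjusted p = 0.267), again with subclone 13 first. FOSB (−0.85 ± 0.77) and ATF3 (−0.90 ± 0.78) had negative values in subclone 13. EdgeR called 0 of 10 members in subclone 13 (1 at an unadjusted p under 0.05), against 0.385% of all genes, and 0 of 10 in subclone 2 (6 unadjusted), against 0.287%. DESeq2 called 1 of 10 in subclone 13, against 1.41% of all genes, and 3 of 10 in subclone 2, against 1.44%. Groups did not overlap, with liver higher, for 2 of 10 members in subclone 13, against 5.22% of all genes, and for 5 of 10 in subclone 2, against 4.32%. The member medians were 0.09 in subclone 13 and 0.80 in subclone 2, beside all-gene medians of 0.02 and 0.05. With mouse in the fit, ZFP36 passed in subclone 13 at 1.80 ± 0.34 (adjusted p = 0.00587, edgeR), 1 of 10 members, against 1.83% of all genes. In subclone 2 it called 4 of 10, against 1.68%: EGR1 at 2.25 ± 0.38 (0.00319), ZFP36 at 2.24 ± 0.34 (0.00125), IER2 at 1.28 ± 0.27 (0.0159) and FOS at 1.70 ± 0.36 (0.0172). Lung and liver comparisons share their tumour samples, so they are given side by side and not as independent counts.

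Between lung and liver metastases, IER2 stood out by having lung above liver without overlap in both subclones. Its log2 fold change was 1.39 ± 0.39 (adjusted p = 0.609) in subclone 13 and 0.65 ± 0.38 (adjusted p = 0.656) in subclone 2 by edgeR. The remaining members in subclone 13 lay between 0.53 ± 0.31 (KLF6) and 1.25 ± 0.77 (FOSB), and all were positive. Those in subclone 2 lay between −0.18 ± 0.57 (EGR1) and 0.74 ± 0.36 (JUNB). EdgeR called 0 of 10 members in subclone 13 (1 unadjusted), where it called 0% of all genes, and 0 of 10 in subclone 2 (0 unadjusted), where it called 0.023%. DESeq2 called 1 of 10 in subclone 13, against 0.339% of all genes, and 0 of 10 in subclone 2, against 1.45%. Groups did not overlap, with lung higher, for 2 of 10 members in subclone 13 (IER2 and KLF6; 5.23% of all genes) and for 1 of 10 in subclone 2 (IER2; 5.92%). With mouse in the fit, IER2 passed in subclone 13 at 1.37 ± 0.27 (adjusted p = 0.0343, edgeR; 0.276% of all genes), and no member passed in subclone 2, where 2.95% of all genes did. Member medians were 0.78 in subclone 13 and 0.61 in subclone 2, with 0.01 over all genes in each.

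Subclone 13 was set against subclone 2 within each organ. EdgeR called 0 of 10 members in lung (0 unadjusted, 0 by DESeq2), 0 in liver (1 unadjusted, 0 by DESeq2) and 0 in tumours (0 and 0), where it called 0.184%, 0.247% and 0.109% of all genes and DESeq2 1.26%, 1.53% and 0.482%. IER2 came nearest: in liver it averaged 91.4 ± 30.8 CPM in subclone 13 and 211 ± 78.6 CPM in subclone 2, a log2 fold change of −1.20 ± 0.39 (adjusted p = 0.320) by edgeR. It was lower in subclone 13 in all 3 mice both in liver and in lung. With mouse in the fit it passed in liver at −1.17 ± 0.27 (adjusted p = 0.0302, edgeR), 1 of 10 members, beside 1.5% of all genes; 0 of 10 passed in lung (1.54%) and 0 in tumours (0.505%). In tumours all 10 members had a positive fold change, with a median of 0.58, and JUN (1020.0, 674 and 704 CPM in subclone 13, 469.9, 381 and 582 CPM in subclone 2) did not overlap, 1 of 10 members, where 9.36% of all genes did so with subclone 13 higher. The largest in tumours was EGR1 at 1.03 ± 0.58. Members' medians were 0.23 in lung and −0.21 in liver. In tumours the all-gene median was 0.02, and the share of all genes with a positive fold change there was not counted. Whether lung or liver against tumour differed between subclones was tested as an interaction: edgeR called 0 of 10 members for lung (0 unadjusted, 0 by DESeq2; 0% of all genes by edgeR and 0% by DESeq2) and 0 for liver (2 unadjusted, 0 by DESeq2; 0% and 0.0172%). Those 2 were EGR1 at −1.73 ± 0.81 (subclone 13 minus subclone 2; unadjusted p = 0.0477) and IER2 at −1.44 ± 0.54 (unadjusted p = 0.0167).

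Mouse 3 carried the highest value in 40 of 60 combinations of member and group: in 9 of 10 members in subclone 13 lung, 9 of 10 in subclone 2 lung, 5 of 10 in each liver group, 2 of 10 in subclone 13 tumours and 10 of 10 in subclone 2 tumours. The share over all genes was not counted, and the members correlate, so the 60 combinations are not separate observations. All mouse 3 libraries came from sequencing run 3, all mouse 2 libraries from run 2 and those of subclone 2 of mouse 1 from run 1. Mouse and run cannot be told apart there. For subclone 13 of mouse 1, 3 libraries per organ were spread over runs 1, 2 and 3, and the highest of the 3 was 1.02 to 1.25 times the lowest across 30 combinations of member and organ. Across the 18 samples the members' log2 CPM values correlated with a median Pearson r of 0.67 over 45 pairs, and of 0.72 after group means were removed. The closest pairs were FOSB with ATF3 (0.96), FOS with ZFP36 (0.95) and FOS with EGR1 (0.94), and FOSL1 stood outside, with r from −0.00 to 0.48. These samples share mice, runs and libraries of unequal depth, so r is a description.

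Among all genes kept, those most like the members' mean z-score over the 18 samples were KLF2 (r = 0.90), GADD45B (0.89), SOCS3 (0.86), CSRNP1 (0.85) and ZNF576 (0.85). In the 6 retransplantation samples the same genes had r of 0.63, 0.86, 0.87, 0.78 and 0.30 in that order. ZFP36 alone was most like SOCS3, with r = 0.97 over 18 samples and 0.93 over the 6. For FOSL1 the nearest gene was ARPC5L (0.91), for IER2 LINC01003 (0.89, but −0.22 over the 6), for FOSB WEE1 (0.92) and for ATF3 TSC22D3 (0.93).

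A list of 30 other immediate early genes gave the wider setting. In lung against tumour edgeR called 3 of them higher in subclone 13 and 5 in subclone 2, none lower, and in liver against tumour 1 and 3, none lower. Of all genes it called 0.419% and 0.436% in lung and 0.385% and 0.287% in liver. In either direction, 12 and 14 of the list had an unadjusted p under 0.05 in lung and 17 and 11 in liver. DESeq2 called 6 and 9 in lung and 5 and 5 in liver (subclone 13 then 2). SOCS3, which blocks JAK-STAT signalling, rose in lung of subclone 13 (2.52 ± 0.46, adjusted p = 0.0158) and subclone 2 (2.92 ± 0.46, 0.00857) and in liver of subclone 2 (2.38 ± 0.45, 0.0267). DUSP1, the phosphatase that inactivates p38 and JNK, rose in all 4 comparisons, by 2.21 and 2.50 in lung and by 2.22 and 2.30 in liver (log2, subclone 13 then 2; adjusted p from 0.0159 to 0.0352, edgeR). IER5L rose in lung of both subclones, by 1.58 in subclone 13 and 1.98 in subclone 2, RHOB in subclone 2 lung by 1.68, and DUSP5, an ERK phosphatase, in subclone 2 liver by 2.01. The list's median log2 fold change was 0.53 and 0.90 in lung and −0.47 and 0.35 in liver, in subclone 13 and subclone 2 in that order. With mouse in the fit the list had 10 higher in subclone 13 lung and 11 in subclone 2 lung, and in liver 6 higher with 3 lower (BTG1, KLF4 and PPP1R15A) in subclone 13 and 7 higher in subclone 2. That fit called 2.89% and 3.05% of all genes in lung and 1.83% and 1.68% in liver (subclone 13 then 2).

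The pathway lists around the members had 0 to 1 edgeR call each in every comparison with tumour. Of 9 genes of EGR1 feedback and targets, SPRY1, a receptor tyrosine kinase antagonist, rose in all 4 comparisons with tumour, by 2.36 and 1.97 in lung and 2.47 and 2.05 in liver (log2, subclone 13 then 2, adjusted p from 0.00015 to 0.00122, edgeR). Of 14 AP-1 target genes tested, MMP14, a membrane-bound matrix metalloproteinase, fell in lung in both subclones, by 1.25 in subclone 13 and 1.20 in subclone 2 on the log2 scale (adjusted p = 0.0296 and 0.0357, edgeR), and no other was called by edgeR (4 to 6 unadjusted and 2 to 4 by DESeq2 in the 4 comparisons). Of the 20 other AP-1, ATF and CREB family genes edgeR called 0 in each of the 4 comparisons (1 to 3 unadjusted, 0 to 2 by DESeq2). The same held for 19 genes of the ZFP36 family and mRNA decay (1 to 2 unadjusted, 0 by DESeq2) and 21 upstream kinases and factors (0 to 3 unadjusted, 0 to 1 by DESeq2). Of 18 AU-rich mRNAs known as ZFP36 targets, IL11 fell in subclone 2 liver, to 5.54 ± 2.995 CPM against 57.6 ± 18.2 CPM in tumours (log2 fold change −3.39 ± 0.63, adjusted p = 0.0243, edgeR), and no other was called by edgeR. In liver that list had 10 at an unadjusted p under 0.05 and 4 called by DESeq2 in subclone 13, and 8 and 3 in subclone 2, and in lung 2 and 1 in subclone 13 and 4 and 0 in subclone 2. That list's median was −0.17 and −0.07 in lung and −1.33 and −1.26 in liver against tumour, in subclone 13 and subclone 2, with all-gene medians of 0.02 to 0.05. Lung against liver it was 1.41 and 1.24, with 0 of 18 called in either (10 unadjusted in each; 3 and 1 by DESeq2). In lung, where F3 (tissue factor) was compared between subclones, it fell in subclone 13 by 1.74 on the log2 scale (adjusted p = 0.0133, edgeR). Fitted with mouse, FOSL2 and JUND, the remaining Fos and Jun family members, passed as higher in subclone 2 lung against tumour, at 0.77 and 0.81 on the log2 scale without mouse. Every other call that mouse added to the lists of this paragraph against tumour was of a gene lower in metastases, among them CD44 of the AP-1 targets in 3 of the 4 comparisons, and the largest count was 5 of 14 AP-1 targets in subclone 13 liver.

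Tissue dissociation is known to induce heat shock genes along with immediate early genes, so 14 of them were read beside the members. EdgeR called none of them higher in any comparison, DNAJB4 fell in subclone 13 liver against tumour by 1.47 on the log2 scale (adjusted p = 0.0375, edgeR), and the list's median was −0.44 and −0.45 in lung and −0.47 and −0.22 in liver against tumour (subclone 13 then 2). In the same order, 5 and 3 had an unadjusted p under 0.05 in lung and 6 and 2 in liver. DESeq2 called 0 and 0 in lung and 4 and 0 in liver. Subclone 13 against 2 in tumours had 4 unadjusted and 0 by DESeq2. Their summed level was 7772 to 11231 CPM in subclone 13 lung, 6345 to 10705 CPM in its liver metastases and 10092 to 16346 CPM in its tumours, and 6431 to 9407 CPM, 5983 to 10587 CPM and 8758 to 11250.0 CPM in those of subclone 2. In retransplantation lung against liver edgeR called 0 of 14 (6 unadjusted) and DESeq2 4 (DNAJB1, HSPA1A, HSPA8 and HSPA1B), with edgeR log2 fold changes of 1.07, 1.06, 0.66 and 0.94, and the summed level was 13691 to 18184 CPM in lung and 9554 to 13221 CPM in liver samples, without overlap. The sort time and digestion of each organ are not given in the sources used here, and their part in the members' levels was not tested.

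In the retransplantation experiment 9 of 10 members overlapped between lung and liver samples of subclone 2. FOS had 3247, 3927 and 3477 CPM in lung samples of mice 4, 5 and 6, and 3550.1, 2669 and 3054 CPM in liver samples. EGR1 had 1519.6, 1899 and 1972 CPM in lung and 1497, 1658 and 1663 CPM in liver. JUN had 2147, 2622 and 3382 CPM in lung and 2518, 2466 and 2079 CPM in liver. None of these 3 genes separated the organs. ZFP36 had 742, 1252 and 1119.6 CPM in lung and 501, 922 and 409 CPM in liver, and lung was higher in all 3 mice. IER2 had 322, 482 and 588 CPM in lung and 367, 314 and 258 CPM in liver, so that mouse 4 went the other way. FOSB had 3841, 4716 and 4568 CPM in lung and 2938, 3642 and 2072 CPM in liver and was the member whose organs did not overlap, 1 of 10, where 9.98% of all genes did so with lung higher. JUNB (855, 1660.3 and 1831 CPM in lung, 965, 1669 and 688 CPM in liver) and ATF3 (1150.0, 1688 and 1549 CPM in lung, 1016, 2379.8 and 1049.7 CPM in liver) overlapped, as KLF6 (1656, 2294 and 2276 CPM in lung, 2476, 2049 and 3009.6 CPM in liver) and FOSL1 (433, 523 and 608 CPM in lung, 444, 422 and 528 CPM in liver) did.

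EdgeR called 0 of 10 members between lung and liver in that experiment (0 unadjusted, 0 by DESeq2), where edgeR called 0% and DESeq2 2.3% of 17549 genes. The highest log2 fold changes were ZFP36 at 0.76 ± 0.34 (adjusted p = 0.408), FOSB at 0.60 ± 0.27 (adjusted p = 0.408) and IER2 at 0.57 ± 0.26 (adjusted p = 0.409), and the lowest was KLF6 at −0.27 ± 0.25. Fitting mouse as well called 0 of 10 members, beside 0.479% of all genes. The members' median was 0.20, beside −0.03 over all genes. Of the AU-rich ZFP36 targets, 4 of 18 passed as higher in lung with mouse in the fit (IL6, CXCL8, CXCL1 and CXCL3) and 0 without it (10 unadjusted, 6 by DESeq2), with a list median of 1.43. Summed lung epithelium markers were 4.51 to 8.19 CPM in lung and 4.67 to 7.39 CPM in liver samples, with SFTPC at most 3.49 CPM, and summed erythroid markers were 1.001 to 10.6 CPM in lung and 0.339 to 0.973 CPM in liver; their part in these values was not tested. Set against subclone 2 in the first experiment, no member's lung-liver difference was called as differing between experiments (edgeR, 0 of 10; 0 unadjusted and 0 by DESeq2), where 0.00507% of 19721 genes were by edgeR and 0.106% by DESeq2. On a scale set over both experiments, FOS was 2544 to 3830 CPM in the 6 retransplantation samples, against 439 to 1590.2 CPM in the 6 metastasis samples of subclone 2 in the first experiment, and EGR1 was 1467 to 1906 CPM against 292 to 799 CPM. FOS and EGR1 in every retransplantation sample lay above all 18 first-experiment samples. JUN (2033 to 3268 CPM against 404 to 1421 CPM) and KLF6 (1619 to 2943 CPM against 933 to 1554 CPM) lay above those 6 metastasis samples, but not above all 18. FOSL1, at 403 to 587 CPM against 366 to 679 CPM, overlapped the 6, as did every member not named here. The share of all genes that lay apart between the experiments was not counted. Experiment and mice cannot be told apart in these levels, and the 2 tables were deposited separately, so no test was made.

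**Figure D4:**
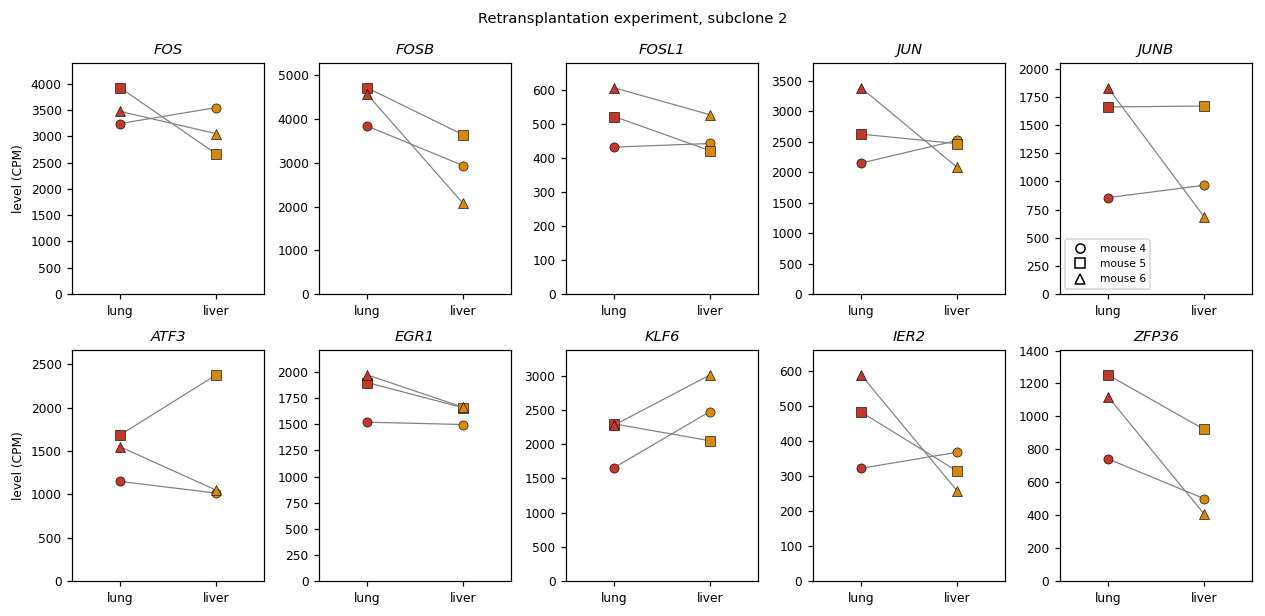
CPM of the 10 genes in the retransplantation experiment, lung on the left and liver on the right of each panel, with lines joining the samples of mice 4, 5 and 6. FOSB is the gene whose 3 lung points lie above its 3 liver points without overlap. Lines cross in the panels of all genes but EGR1 and ATF3.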

How the data were processed

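RNA was extracted with the Qiagen miRNeasy micro kit with DNase treatment and made into TruSeq RNA v2 libraries, per the labels' protocols. Raw read counts per Ensembl gene were deposited by the authors in 1 table for each experiment; bcl2fastq 2.15.0.4, cutadapt, STAR and featureCounts on GRCh38 are named in the submitters' processing notes. The sequencing run of each library came from the authors' deposited sample sheet. The 3 libraries of subclone 13 of mouse 1 were summed per organ, which leaves 18 and 6 samples. Samples held 11.8 to 82.2 M counts (M, 1000000). Counts were tested on the whole table with edgeR 4.0.16 (R 4.3.3; TMM, filterByExpr, quasi-likelihood F test on group means, Benjamini-Hochberg over all genes kept, threshold 0.05), 1 fit per experiment and 1 joint fit over the 33867 shared genes. Each SE was derived from the log2 fold change and its F statistic. The labels give the samples of a mouse as coming from 1 animal, and their deviations from group means correlated (median r 0.36 over 45 pairs of the same mouse, lowest 0.15, against −0.27 over 108 of different mice; 0.30 over 3 pairs in the retransplantation), so mouse was fitted as a replicate block. Deviations from a group mean cancel within the group, so r between different mice is pushed to negative values and is no separate support. Alternatives were DESeq2 1.42.0, other scaling, no filter, the groups compared alone, other libraries and leave-one-out fits. In a simulated subclone 2 lung against tumour comparison of 16380 genes, 97% of genes changed 4-fold and 9% of those changed 2-fold were recovered. The simulation used independent samples and 1 fixed spread for all genes, below that of the data (biological coefficient of variation 0.476). These shares therefore do not carry over to the real comparison. P-values rest on the spread between the 3 mice of a group, pooled over the groups of a fit. With mouse in the fit they rest on the spread left after mouse. In the first experiment mouse also stands for sequencing run, apart from subclone 13 of mouse 1. Gene models are GENCODE v29. All members are named, and from each list at most 4 called genes per direction with at least 5 CPM in the higher group. Genes named beyond this rule (those called only with mouse in the fit) were chosen after their values were seen. Members and lists were chosen with earlier results of these data known.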

Additional observations from a re-analysis of the deposited data

Results flagged for a closer look

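EGR1 had opposite orders of the subclones in liver and tumours: in every mouse subclone 13 was below subclone 2 in liver metastases and above it in primary tumours. The within-mouse differences on the log2(CPM + 1) scale, subclone 13 minus subclone 2, were −0.68, −0.52 and −0.82 in liver and 2.25, 1.06 and 0.22 in tumours, in mice 1, 2 and 3. EGR1 was flagged for these opposite signs, out of all members and several pairs of comparisons. The unadjusted p given next comes from the same values, so it is no independent support. The difference between those log2 fold changes (liver minus tumour) was −1.73 ± 0.81 with an unadjusted p of 0.0477, and it did not pass the adjustment over all genes (adjusted p = 0.99999, edgeR). In the same comparison 4 of the 14 heat shock genes also had an unadjusted p under 0.05 and a negative value (DNAJB1 −1.25, DNAJB4 −1.16, HSPA1A −1.39 and HSPA1B −1.37), and 0 of 14 passed the adjustment (0 by DESeq2); their part in the EGR1 value was not tested.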

How the results depend on the processing

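Of 13 counts of called members, RLE scaling changed 0. In subclone 2 lung against tumour, 2 members were called without the block, 5 by DESeq2, 6 with no filter on low counts, 1 when only the groups compared were fitted (ZFP36 at adjusted p = 0.0727) and 0 to 2 when 1 sample or mouse was left out. In subclone 13 lung against tumour it was 1, 3 by DESeq2, 4 with no filter and 0 to 1 in leave-one-out fits. Subclone 2 liver against tumour had 0, 3 by DESeq2 and 4 with no filter, and subclone 13 liver against tumour 0, 1 and 1. Subclone 13 lung against liver had 0, 1 by DESeq2 and 1 with no filter, and subclone 13 against 2 in liver 0 and, with no filter, 1. Leave-one-out fits of all other comparisons gave 0 to 0. The cause was not tested. Without 1 whole mouse, ZFP36 in lung against tumour was called in 1 of 3 fits in subclone 13 (adjusted p 0.0185 to 0.606) and 1 of 3 in subclone 2 (0.0286 to 0.444), and IER2 in subclone 2 in 0 of 3 (0.0638 to 0.394). Over all genes, the fits without mouse 1, 2 or 3 called 145, 4 and 0 in subclone 13 lung against tumour. In subclone 2 they called 97, 2 and 2, so the losses were not confined to the members.

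With mouse as a replicate block the counts of called members were 3 in subclone 13 lung against tumour, 6 in subclone 2 lung against tumour, 1 in subclone 13 liver against tumour, 4 in subclone 2 liver against tumour, 1 in subclone 13 lung against liver and 1 in subclone 13 against 2 in liver. The block changed no other count. Over all genes, subclone 2 lung against tumour had 532 calls with the block, 359 by DESeq2, 219 with no filter, 76 without the block and 18 from the groups compared alone. Without the filter the share of all genes called was 0.691% in subclone 13 lung against tumour, 0.582% in subclone 2 lung against tumour, 0.793% and 0.694% in liver against tumour (subclone 13 then 2), 0.205% in subclone 13 lung against liver and 0.673% in subclone 13 against 2 in liver; DESeq2's shares stand in the comparisons above. Of 2260 alternatives of single member results, 170 had the other sign, in 54 of 130 results, and 0 of those were called.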
